A study of Mus musculus with 2 samples.

Results

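Multi-exon transcript models whose intron chain lacks the annotated 5′ end were examined in long-read RNA sequencing of adrenal glands from male B6CASTF1/J mice, an F1 hybrid strain, taken 4 days after birth. Such a model, called a suffix model below, keeps the 3′ introns of another transcript and lacks at least 1 intron at its 5′ end. The exon on the 5′ side of each missing intron is counted as lost, although a model that reads through that intron can still cover it. They were selected as every model of at least 2 exons that the TALON software had placed in the class "incomplete splice match" with the subtype "Suffix". Replicate 1 held 15778 suffix models among 89525 models of mouse loci, and replicate 2 held 19450 among 109954. The 2 libraries belong to 1 group of total RNA from whole gland, with no treatment and no second genotype, so every comparison between them is between biological replicates and not between conditions. Whether they come from separate animals is unclear from the labels: the tissue of replicate 1 is attributed to male 03 and that of replicate 2 to male 04, but the 2 libraries carry the same donor identifier and the name of male 03. Spike-in RNAs were added to both and were left out here.

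Messenger RNA starts at a promoter, and many genes use several, so a transcript that begins at an internal promoter lacks the exons upstream of it. Long-read protocols copy RNA from the poly(A) tail towards the 5′ end, and a copy that stops early, or an RNA that was broken or trimmed, also gives a read with the 3′ exons and without the first ones. A suffix model can hold reads of any of these kinds, and the read sequences were not analysed here. In the adrenal gland the cortex makes steroid hormones from cholesterol, and chromaffin cells of the medulla store catecholamines in granules.

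The libraries held 707726 reads in replicate 1 and 832552 in replicate 2, of which 688260 and 810645 belonged to mouse loci. Transcripts of cortex and medulla were abundant in both: the cholesterol side-chain cleavage enzyme Cyp11a1 had 8030 and 9240 reads, and Th, the rate-limiting enzyme of catecholamine synthesis, had 1649 and 1342. Replicate 2 also held plasma protein transcripts of liver, with 48 Alb (albumin) reads in replicate 1 and 2984 in replicate 2. In a bulk sample, fewer cells of a type and less RNA per cell cannot be told apart. Intervals below are 95% Wilson intervals, and since the reads carry no molecular identifiers they cover counting error only.

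The sequences at which suffix models begin are shown first, because the 5′ end is where these models differ from the annotation. For 5 intron chains with many reads, the model began at the first base of an exon of the annotated transcript, inside its coding sequence, in both libraries or, for Cyp11a1, in replicate 1. The first 30 bases of that exon are given in mm10 coordinates from the GENCODE release 21 transcripts, with the first 2 bases in capitals. They lie at chr1:65021476-65021505 on the minus strand (Akr1cl, exon 5 of 9), chr2:132792330-132792359 on the plus strand (Chgb, exon 4 of 5), chr3:10205313-10205342 on the minus strand (Fabp4, exon 3 of 4), chr9:58019293-58019322 on the plus strand (Cyp11a1, exon 4 of 9) and chr5:90468481-90468510 on the plus strand (Alb, exon 8 of 15).
Akr1cl: GCcatggagaagtgtaaggattcagggtta
Chgb: GTggaaaagaggtcaaaggtgaagagaaag
Fabp4: AGcatcataaccctagatggcggggccctg
Cyp11a1: CCatcagcagtgttatatttggggagcgca
Alb: GCggaacttgccaagtacatgtgtgaaaac

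A further set began on no exon boundary. The 7 genes below are those whose start lay within 20 bp in both libraries and whose surrounding 60 bases were coding sequence of 1 exon, and they are shown for the bases next to the start. Capitals mark the last base before the start and the first base of the model in replicate 1. The windows are chr2:143988677-143988736, minus strand (Rrbp1), chr9:57257285-57257344, minus strand (1700017B05Rik), chr9:110387492-110387551, minus strand (Ptpn23), chr11:70394326-70394385, minus strand (Pelp1), chr7:126472213-126472272, minus strand (Sh2b1), chr15:39031409-39031468, plus strand (Fzd6), and chr17:35155398-35155457, minus strand (Prrc2a).
Rrbp1: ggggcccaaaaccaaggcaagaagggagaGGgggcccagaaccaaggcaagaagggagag
1700017B05Rik: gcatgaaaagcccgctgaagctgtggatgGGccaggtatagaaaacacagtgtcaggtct
Ptpn23: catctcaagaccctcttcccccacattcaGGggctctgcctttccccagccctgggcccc
Pelp1: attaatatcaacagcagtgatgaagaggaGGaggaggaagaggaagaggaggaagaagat
Sh2b1: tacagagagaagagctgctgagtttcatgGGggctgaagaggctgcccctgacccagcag
Fzd6: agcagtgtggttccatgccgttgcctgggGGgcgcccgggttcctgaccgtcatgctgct
Prrc2a: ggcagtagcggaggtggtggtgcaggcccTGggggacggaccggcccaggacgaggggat

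Suffix models took 44032 reads in replicate 1 and 57877 in replicate 2. This was 6.40% of mouse reads in replicate 1 (interval 6.34% to 6.46%) and 7.14% in replicate 2 (7.08% to 7.20%), or 6.77% ± 0.525 (SD, n = 2). Of multi-exon reads alone they were 7.40% in replicate 1 and 8.65% in replicate 2. The share was lower in replicate 1 by more than its counting error, and with 1 library on each side the difference has no replicate check. The class given to a chain could also differ between the libraries. The subtype "Both", which held some of these chains in the other library, went the other way. It had 0.870% of multi-exon reads in replicate 1 and 0.536% in replicate 2. Without 15 genes of liver plasma proteins the shares were 6.40% and 7.10%. Those 15 did not take in all such genes: Serpinc1, also of liver, had 4 suffix reads in replicate 1 and 274 in replicate 2. What liver transcripts as a whole add to the difference was not tested.

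Multi-exon models classed as lacking the 5′ end were far more frequent than those classed as lacking the 3′ end. Models of the subtype "Prefix", which lack 3′ exons, numbered 2610 in replicate 1 and 2966 in replicate 2, with 4609 and 5132 reads. Suffix models thus had 9.55 reads for each read of a prefix model in replicate 1 and 11.3 in replicate 2. Models that matched an annotated intron chain in full held 81.1% and 80.0% of multi-exon reads. Weighted by reads, the median length was 1456 bases for suffix models in replicate 1 and 1270 in replicate 2, against 1930 and 1796 for full matches.

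Most suffix models rested on a single read. In replicate 1, 68.4% of them had 1 read, and in replicate 2, 66.2%. The 492 models with at least 10 reads in replicate 1 held 43.8% of suffix reads, and the 657 in replicate 2 held 45.5%. Across both libraries there were 27912 distinct intron chains, of which 7316 occurred as suffix models in both. A chain seen once recurred in the other library in 33.1% of cases from replicate 1 and 24.0% from replicate 2, whereas chains with at least 10 reads recurred in 97.6% and 93.8%. The recurring chains carried 76.2% of suffix reads in replicate 1 and 71.1% in replicate 2. Of all suffix models, 46.4% in replicate 1 and 37.6% in replicate 2 recurred, against 29.6% and 26.0% of prefix models, which have fewer reads each.

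How much was lost was measured against the annotated transcript from which the fewest exons were missing. An annotated parent of this kind existed for 93.1% of suffix models in replicate 1 and 92.0% in replicate 2. For the others the software gave only new models as parents. The median suffix read lacked 3 exons and kept 5 in both libraries, and the mean loss was 5.09 exons in replicate 1 and 5.45 in replicate 2. Loss of exactly 1 exon made up 33.2% of reads in replicate 1 and 31.9% in replicate 2, and loss of at least 11 exons made up 11.6% and 12.9%. The extremes were the ubiquitin ligase gene Ubr4 in replicate 1, with 104 exons missing, and the giant muscle protein gene Ttn in replicate 2, with 188. The median read kept 66.7% of its parent's length in replicate 1 and 63.2% in replicate 2. Models that begin upstream of the whole intron before their first kept exon, and so span that intron unspliced, held 11.3% of these reads in replicate 1 and 10.6% in replicate 2. Among them the loss counted was 1 exon for 66.0% of reads in replicate 1 and 61.1% in replicate 2, and without them the median loss was again 3. The annotated start codon lay in the exons counted as lost for 83.5% of the reads in replicate 1 and 85.2% in replicate 2, among parents with an annotated start codon, and for 3.53% and 3.09% it lay there but downstream of the start of the model. It was outside the lost exons and kept for 14.7% and 12.7%.

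**Figure D1:**
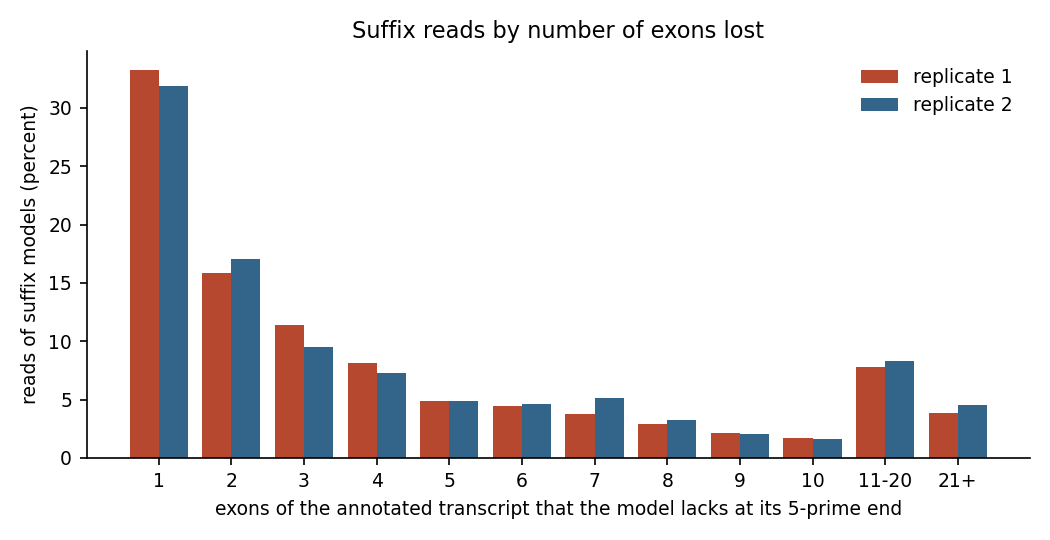
Percent of suffix reads with an annotated parent (vertical axis) by the number of 5′ exons that the model lacks (horizontal axis), with replicate 1 left of replicate 2 in each pair of bars. Single-exon loss led with 33.2% in replicate 1 and 31.9% in replicate 2, and the bars get lower along the axis until the 2 pooled classes at its end, except at 7 exons in replicate 2, the class that holds the leading Alb chain with its 842 reads there.

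Suffix reads were seen in 6510 genes in replicate 1 and 7367 in replicate 2, and the 20 leading genes held 21.6% of them in each library. These 20 were picked for their suffix reads, and how far all multi-exon reads gather in few genes was not measured. Shares given for a gene below are of its multi-exon reads, and reads in its single-exon models are outside them.

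Of the 20 genes, 5 belonged to the list of respiratory chain genes, which held 85 genes with multi-exon reads. Of all 4854 genes with at least 20 multi-exon reads in each library, 82 were on this list. The 20 were ranked by number of suffix reads, which favours abundant genes. The median share of the list, 1.34% in replicate 1 and 2.25% in replicate 2, was under that of all 4854 genes, 3.33% and 4.27%. Atp5b, the catalytic subunit of the ATP synthase, had 558 suffix reads of 2069 in replicate 1 and 971 of 2446 in replicate 2, or 27.0% and 39.7%. Its leading chain keeps 2 exons, so that 1 exon is missing against the shortest annotated parent and 8 against the leading Atp5b transcript. Ndufa4, a small subunit of the respiratory chain, had 54.5% in each library, from 487 and 739 suffix reads, nearly all in 1 chain of 2 exons with 485 and 735 reads. Atp5f1, of the stalk of the ATP synthase, had 98.3% and 99.0%, from 294 and 380 suffix reads, and no read in either library matched a known multi-exon Atp5f1 transcript in full. Its main chain lacked 1 exon, kept the start codon and began 17 bases from a RefSeq gene start. Atp5j, another stalk subunit, had 65.1% and 66.8%, and its leading chain likewise lacked 1 exon and kept the start codon. Ndufs7, of complex I, had 40.3% and 50.9%, and its leading chain of 146 and 267 reads lacked 6 of 8 exons. The high share therefore went with different amounts of loss in different genes.

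Steroid synthesis genes showed shares from 0% to 25.8%. Cyp11a1 had 633 suffix reads of 4784 multi-exon reads in replicate 1 and 661 of 4533 in replicate 2, or 13.2% and 14.6%. Over all models Cyp11a1 had 8030 and 9240 reads, so a large part lay in single-exon models, outside these shares. Its leading chain lacked 3 of 9 exons, with 457 and 408 reads. The deposited start of that chain was chr9:58019293 in replicate 1, the annotated exon start, and chr9:58019280 in replicate 2, 13 bases upstream, which is a splice site of another new model. Cyp21a1, a steroid hydroxylase of glucocorticoid and mineralocorticoid synthesis, had 5.79% and 6.30%, spread over 69 chains. A pseudogene copy of Cyp21a1 lies near it, so its counts are uncertain to that extent. Hsd3b1, a dehydrogenase that makes progesterone, had 9.76% and 11.8%, mainly from 1 chain that lacked the first exon and kept the start codon, with 452 and 361 reads. Star, which brings cholesterol into mitochondria, had 13.8% and 16.8%, and its leading chain lacked 3 of 7 exons with 105 reads in each library. Nr5a1, the transcription factor of steroid-making cells, had 19.8% and 25.8% from 79 suffix reads in each. Cyp11b1 and Cyp11b2, which make the last steps of glucocorticoid and mineralocorticoid synthesis, had 2.92% and 3.28%, and 3.50% and 3.89%. No suffix read was seen for Nr0b1, of 86 and 72 multi-exon reads, or Hsd3b6, of 57 and 30. Summed over 16 genes the share was 7.79% in replicate 1 and 9.47% in replicate 2.

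Outside this list, 2 aldo-keto reductase genes were also prominent. Akr1cl had 859 suffix reads of 2394 in replicate 1 and 784 of 1811 in replicate 2, or 35.9% and 43.3%, mostly from the chain that lacks 4 of 9 exons. Akr1c18, which inactivates progesterone, had 42.9% and 42.0%, and its leading chain of 556 and 235 reads lacked 3 of 8 exons. Members of this family resemble each other in sequence, and their counts are uncertain where reads could match several. Fabp4, the fatty acid-binding protein of adipocytes and endothelium, had 85.5% and 82.5%, from 547 and 818 suffix reads, with 2 of its 4 exons missing in the leading chain. Sparc, a collagen-binding matrix protein, had 321 suffix reads of 1875 in replicate 1 and 314 of 1741 in replicate 2. Ssbp1, which binds single-stranded mitochondrial DNA, had 67.3% and 65.5%, mostly from a chain that lacks 4 of 6 exons. Paip2, a regulator of translation, had 52.2% and 58.4%, and Hnrnpa2b1, an RNA-binding protein, had 46.9% and 55.3% over 30 chains.

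Chromaffin genes had shares from 0% to 81.8%. Chgb, a chromogranin of the catecholamine granule, had 603 suffix reads of 2628 in replicate 1 and 582 of 2371 in replicate 2, or 22.9% and 24.5%, and 593 and 563 of these belonged to the chain of 2 exons printed above. Chga, its relative, had 6.22% and 10.9%, and the leading chain lacked 6 of 8 exons. Npy, a peptide released with catecholamines, had 17.2% and 16.2%, and 98 and 101 of its reads were in a chain that began exactly at a RefSeq gene start, spanned the first intron unspliced and kept the start codon. Dbh, which makes noradrenaline, had 19.5% and 28.8%, and its leading chain lacked 9 of 12 exons. Th had 2.63% and 2.94%, Pnmt, which makes adrenaline, 1.07% and 1.70%, and Scg2 1.54% and 0.937%. The vesicular transporter Slc18a1 had 18 suffix reads of 22 and 6 of 12, too few to test, and Ddc, which makes dopamine, had 7 of 15 and 13 of 27. Penk and Hand2, both with leading transcripts of 2 exons, had no suffix read. Over 18 genes the share was 10.3% in replicate 1 and 12.4% in replicate 2.

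**Figure D2:**
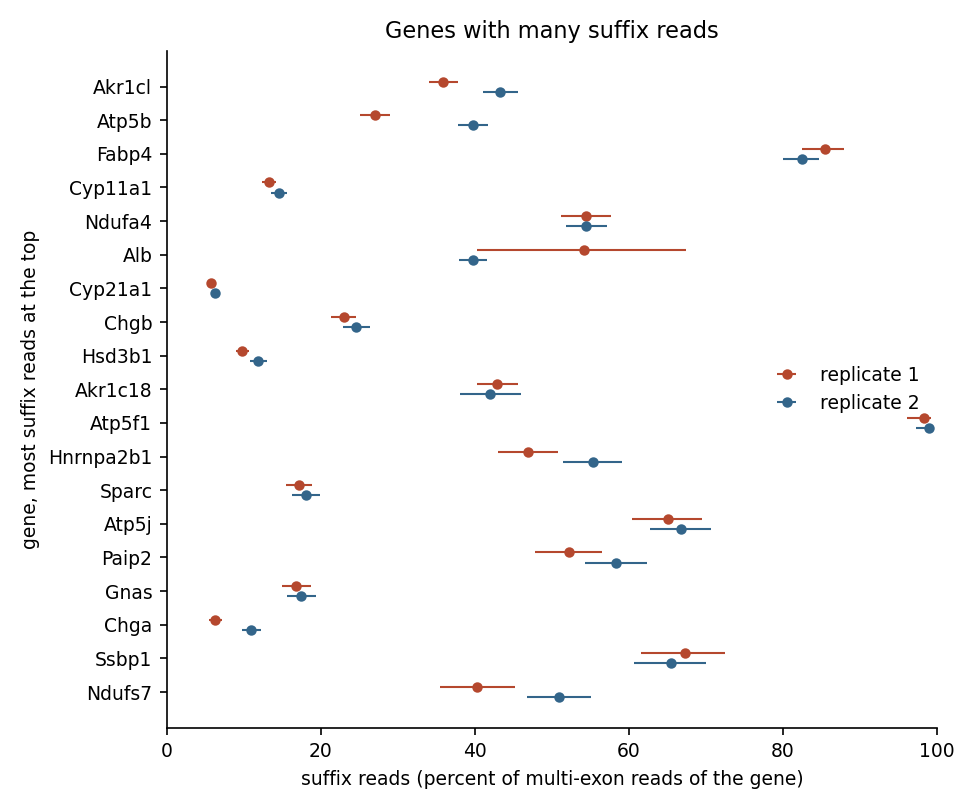
Suffix reads as percent of the multi-exon reads of the gene (horizontal axis) for 19 of the 20 genes with most suffix reads, with replicate 1 above replicate 2 for each gene and 95% Wilson intervals as bars. Atp5f1 and Fabp4 lie above 80% in both libraries, Cyp21a1 near 6%, and the points of Atp5b are 12.7 points apart.

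Among the lists, genes of the extracellular matrix stood at the high end. Over 22 matrix and collagen genes, 26.1% of multi-exon reads in replicate 1 and 29.8% in replicate 2 were suffix reads, and the median over the 14 genes with at least 20 multi-exon reads in each library was 39.2% and 44.7%. Over all 4854 genes with that many reads the medians were 3.33% and 4.27%. Exon number differs, however: the leading known transcripts of Col1a1 and Col3a1 have 51 exons. Over the 557 genes with at least 17 exons in that transcript the medians were 10.2% and 13.0%, and the summed shares 14.3% and 15.9%. Col1a2, a chain of type I collagen, had 83 suffix reads of 89 in replicate 1 and 184 of 189 in replicate 2, and the median Col1a2 suffix read lacked 31 exons. Col1a1, the other chain of that collagen, had 36.1% and 38.8% with a median loss of 33 exons, and Col3a1 had 16.2% and 17.4% with a median loss of 29. The losses in these genes were spread out: Col1a2 had 48 suffix chains and its leading chain held 8 and 17 reads. Tln1, the integrin-binding protein talin, is not on this list but on that of cytoskeleton and motor genes. It showed 88.0% and 91.3% over 28 chains with a median loss of 41 exons, far above the medians of its own list, 4.82% and 4.81%.

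Of the other lists, translation factors had 13.5% and 17.1% over 14 genes, chaperones 6.68% and 8.80% over 14, and cytoskeleton and motor genes 6.59% and 8.56% over 21. The elongation factor Eef1a1 had 17.3% and 25.8%, Eef2 27.2% and 31.1%, and the chaperone of the endoplasmic reticulum Hsp90b1 25.9% and 42.4%. None of Eef1a1, Eef2 and Hsp90b1 was called in the test between the libraries given at the end. Eef1a1 passed the adjusted p there, but with a difference under 10 points. The median of the 82 genes of cytosolic ribosomal proteins with enough reads was 1.98% in replicate 1 and 2.09% in replicate 2. Respiratory chain genes had summed shares of 8.82% and 10.9% and medians of 1.34% and 2.25%. The medians of both lists were under those of all tested genes. Imprinted growth genes had 7.27% and 8.83%, among them Gnas with 16.8% and 17.4% and the cell-cycle inhibitor Cdkn1c with 2.78% and 3.03%. Liver plasma protein genes had 37 suffix reads in replicate 1 and 1610 in replicate 2, or 10.7% and 10.2%, and Alb alone gave 26 and 1184.

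At the ends of the range, among genes with at least 100 multi-exon reads in each library, the highest shares were those of Atp5f1, the proteasome subunit Psmc2, Sdsl, the cholesterol synthesis enzyme Dhcr7 and the lysosomal protease Ctsa. Psmc2 had 95.9% in replicate 1 and 95.5% in replicate 2, Sdsl 90.1% and 89.3%, Dhcr7 87.7% and 82.8%, and Ctsa 82.5% and 86.1%. In all 5 the leading chain lacked a single exon and kept the start codon, and in Atp5f1, Dhcr7, Psmc2 and Ctsa it began within 100 bases of a RefSeq gene start in replicate 1, at 17, 20, 97 and 54 bases. No suffix read was found for the ubiquitin gene Ubb, of 2809 and 3224 multi-exon reads, the ferritin gene Ftl1, the globin genes Hba-a1 and Hbb-bs, or the potassium channel gene Kcnk3. The leading transcripts of these 5 genes have 2 to 4 exons.

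The suffix share was higher in genes with more exons. With the gene's leading known transcript as measure, genes of 2 exons had 1.41% suffix reads in replicate 1 and 1.63% in replicate 2, genes of 5 to 8 exons had 6.31% and 7.53%, and genes of at least 17 exons had 14.3% and 15.9%. By length, transcripts under 1 kb had 5.61% and 5.65%, and those over 4 kb had 9.97% and 12.1%. Across 4803 genes Spearman's rho of the share was 0.480 and 0.518 with the number of exons, and 0.249 and 0.258 with length. A transcript with more exons can lose more of them and be given more suffix chains, and the genes are not independent replicates. Between the libraries the share per gene had a rho of 0.721 over 4854 genes and 0.877 over the 1214 genes with at least 100 multi-exon reads in each. Both libraries had 0 suffix reads for 670 genes, and a share above 50% was seen in 84 genes in replicate 1 and 87 in replicate 2.

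**Figure D3:**
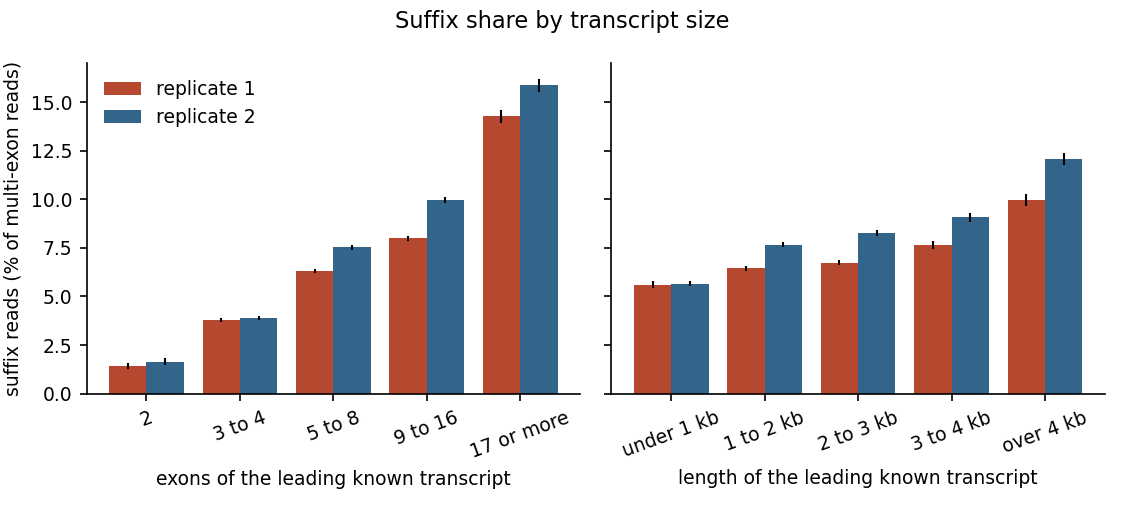
Percent of multi-exon reads in suffix models (vertical axis) by number of exons (left) and length (right) of the gene's leading known transcript, with replicate 1 left of replicate 2 in each pair and 95% Wilson intervals as bars. The share goes from 1.41% in replicate 1 and 1.63% in replicate 2 at 2 exons to 14.3% and 15.9% at 17 exons or more, a wider range than by length.

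Most deposited starts coincided to the base with an annotated exon boundary. This held for 94.8% of suffix models in replicate 1 and 94.9% in replicate 2, and for models with a single read the share was 95.0% and 94.9%. In replicate 1, 9524 models began at the first base of an annotated exon that is not a transcript's first, 4052 at an annotated transcript start and 1385 at another annotated boundary. In replicate 2 these numbers were 11852, 4876 and 1728. Another 543 models in replicate 1 and 612 in replicate 2 began at a splice site of a new model, which left 274 and 382 on no boundary, 1.41% and 1.51% of suffix reads. Those lay a median of 616.5 bases from the nearest annotated boundary in replicate 1 and 658 in replicate 2. The deposited start of a model is thus in most cases an annotated coordinate, and where the single reads began was not analysed here.

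Suffix models whose start lay within 50 bases of an annotated transcript start of the gene held 29.4% of suffix reads in replicate 1 and 28.5% in replicate 2. For the RefSeq starts, of which the table used holds 1 for a gene and none for some genes, the shares were 6.15% and 5.69%. Of the reads with an annotated parent, 9.19% in replicate 1 and 9.58% in replicate 2 belonged to models that begin in the intron just upstream of their first kept exon. A further 11.3% and 10.6% belonged to models that begin upstream of that whole intron, among them chains of Cyp21a1 with 255 and 105 reads, of Gnas with 173 and 185, of Rpl6 with 64 and 93 and of Cdkn1c with 74 and 71. The leading shared starts inside the intron included Fcf1, a factor of ribosome assembly, with 138 reads in replicate 1 and 186 in replicate 2, 234 bases into the intron upstream of its exon. These were 70.4% and 72.7% of the multi-exon reads of Fcf1. Cdk5rap2, a centrosomal protein, had 46 and 40 reads in a chain that lacks 26 of 34 exons and starts 267 bases upstream of its first kept exon, at chr4:70243852 in both libraries. Banf1, a chromatin protein, had 56 and 54 reads from a start that is also a RefSeq gene start. Serpinc1, the plasma protein antithrombin made in liver, had 4 and 245 reads, which went along with the liver transcripts of replicate 2. In Fcf1, Cdk5rap2, Banf1 and Serpinc1 the start is the annotated start of another transcript of the gene. It lies in an intron only of the parent used for comparison.

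Among shared starts with at least 5 exons lost, the chains with most reads were those of Alb, Ndufs7, Hnrnpa2b1, Akr1cl and Chga. Hnrnpa2b1 had 152 reads in replicate 1 and 173 in replicate 2 for a chain of 2 exons that lacks 8 of 10. C4a, a complement gene, had 87 and 96 reads in a chain lacking 34 of 40 exons, and since the genome holds a close copy of it, this count is uncertain. Acadm, of mitochondrial fatty acid oxidation, had 91 and 88 reads with 10 of 12 exons missing. Each of these began at the same base in both libraries. They were picked for a shared start, and each start is an annotated boundary, so this agreement was given by the selection.

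Starts were compared between the libraries for the 7316 intron chains found as suffix models in both. They lay within 20 bp of each other for 5966 chains, or 81.5% (interval 80.6% to 82.4%), and at the same base for 5647. The figure depended on the kind of start. Where both libraries began at the first base of an annotated exon, 98.9% of 3676 chains were shared, and where both began at annotated transcript starts, 87.4% of 1892. New splice sites in both gave 49 of 62 chains, or 79.0%. Where only 1 library was on an annotated boundary the share was 36.1% of 543. Of the 61 chains that began on no boundary in either library, 12 were shared, or 19.7% (interval 11.6% to 31.3%), 2 of them at the same base, and the median distance between the libraries was 229 bases. The share changed little with read number, from 81.3% of chains with 2 to 4 summed reads to 84.6% of those with 50 or more. It was 76.2% for chains lacking 1 exon and 88.3% for those lacking 10 or more. Since an annotated coordinate is the same in both files, the agreement of such starts is not an independent measure of where RNA or reads began.

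**Figure D4:**
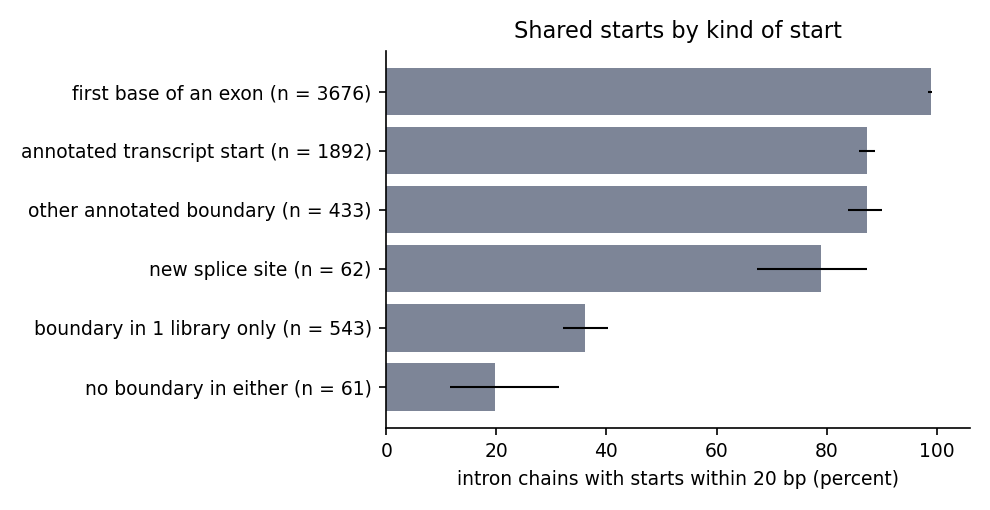
Percent of intron chains whose deposited starts lie within 20 bp of each other in both libraries (horizontal axis) by the kind of start in the libraries, with 95% Wilson intervals and the number of chains. The share is 98.9% for first bases of annotated exons and 19.7% where neither library's start lies on a boundary.

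The 12 shared starts on no boundary are few and thinly covered. The best covered was in Rrbp1, a ribosome-binding protein of the endoplasmic reticulum, with 17 reads in replicate 1 and 14 in replicate 2 starting at chr2:143988706 and chr2:143988704, 1560 bases into the second exon. The next was 1700017B05Rik with 8 and 17 reads, whose starts were 1 base apart. The tyrosine phosphatase gene Ptpn23 had 6 and 4 reads from the same base, chr9:110387521, in a model without the first 19 of 25 exons. Pelp1, a nuclear receptor coregulator, had 3 and 5 reads, and the signalling adaptor Sh2b1 had 3 and 5 in 1 chain and 1 and 1 in another that begins at the same bases. The Wnt receptor gene Fzd6 and Prrc2a had 2 and 2 reads each. The remaining 4 of the 12, in Eif5b, Tspan10, Ubqln4 and a locus outside the annotation, did not lie in an exon of an annotated parent and had between 1 and 3 reads in each library.

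Guanine was frequent at starts on no boundary. The 30 bases on either side could be read in the parent transcript for 135 of the 274 such models in replicate 1 and 166 of the 382 in replicate 2. The base just before the start was guanine in 67.4% of them in replicate 1 (interval 59.1% to 74.7%) and 62.0% in replicate 2 (54.5% to 69.1%). The first base of the model was guanine in 57.0% and 55.4%. At 11 to 30 bases from the start on either side guanine made up 27.4% and 28.4%. Both bases were guanine in 37.8% of starts in replicate 1 and 37.3% in replicate 2, against 7.80% and 7.91% of neighbouring base pairs at that distance. Of the 7 genes with shared coding windows, 6 show GG in capitals above, and Prrc2a has thymine before guanine. The capitals hold for replicate 1 only. In replicate 2, Pelp1 starts 2 bases away and Sh2b1 3 bases away, where the bases are not GG. Prrc2a starts 3 bases away there, between 2 guanines. These starts are among those counted above and add no separate evidence. For comparison, models that begin at the first base of a parent's exon had guanine as the last base of the lost exon in 82.8% and 82.7%, and as their own first base in 52.4% and 53.3%, as splice junctions usually do. Models and libraries share some starts, so these counts are not all independent.

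**Figure D5:**
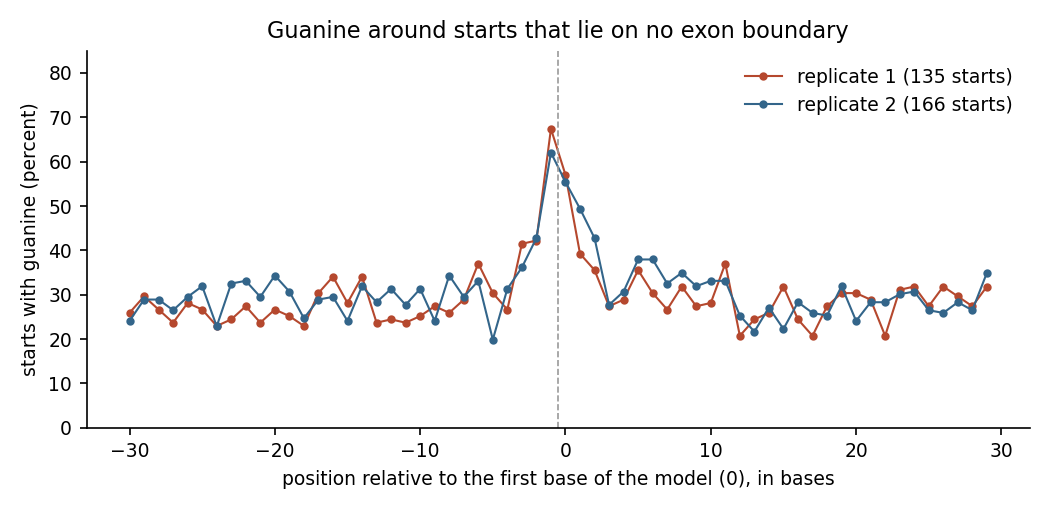
Percent of starts with guanine (vertical axis) at each position from 30 bases before to 29 after the first base of the model (horizontal axis), for suffix models starting on no exon boundary. The curves of replicate 1 (135 starts) and replicate 2 (166 starts) peak at the base before the start, at 67.4% and 62.0%, and lie between 20.7% and 38.0% at more than 5 bases from the first base.

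Genes were tested for a difference in suffix share between the libraries by Fisher's exact test on read counts, two-sided, with Benjamini-Hochberg adjustment over 4854 genes, and called at an adjusted p under 0.05 and at least 10 points of difference. This compares 2 libraries, not conditions. It called 15 genes, 0.309% of those tested, of which 4 (0.0824%) were higher and 11 (0.227%) lower in replicate 1. At an unadjusted p under 0.05 there were 182 of the 4854 genes, of which 28 were higher and 154 lower in replicate 1. Without adjustment such a cut-off also passes genes by chance. The suffix share of all multi-exon reads was lower in replicate 1 as well, at 7.40% against 8.65%. The median difference over all tested genes was -0.302 points. Of the genes in the lists above, Rpsa among ribosomal proteins was called higher in replicate 1, and Atp5b and Ndufa13 among respiratory chain genes were called lower. No member of the other 8 lists was called, and Chga, Akr1cl, Eef1a1 and Adh1 passed the adjusted p with a smaller difference. Chga differed by -4.66 points and Akr1cl by -7.41 (replicate 1 minus replicate 2).

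For most of the called genes the same intron chain was present in both libraries under another name. In 9 of the 15 the leading suffix chain had been given a different class in the other library, and in 3 a different gene. Ndufa13, a subunit of complex I, had 2 suffix reads of 237 in replicate 1 and 396 of 411 in replicate 2, yet its leading chain of 4 exons had 227 reads in replicate 1 and 390 in replicate 2, from the same start. That chain was classed in replicate 1 under the subtype "Both", which TALON gives to a chain that matches the 5′ part of 1 transcript and the 3′ part of another. Uchl1, a deubiquitinase of neurons, had 94 of 105 in replicate 1 and 2 of 109 in replicate 2, and its chain of 8 exons had 92 and 91 reads, classed as a new combination with a new splice site in replicate 2. Mpc1, the mitochondrial pyruvate carrier, had 55 of 58 and 0 of 124, and its chain had 55 and 117 reads. A chain of 5 exons starting at chr9:120128806, with 41 reads in replicate 1 and 39 in replicate 2, was given to Rpsa in replicate 1 and to Slc25a38 in replicate 2, and both genes were called. The leading chain of H2-Ke6, with 82 and 102 reads, was given to Gm20427 in replicate 1. A change of class also went with the calls of Pusl1, higher in replicate 1, and of Aars, Nudt5, Snhg5, Sptb and Surf2, lower in replicate 1. The leading Pusl1 chain, however, had 12 reads in replicate 1 and only 1 in replicate 2. Pusl1 still differed by 14.5 points, without a call, once chains classed as suffix in either library were counted in both. For Aars, the alanyl-tRNA synthetase, 45 reads in replicate 1 and 46 in replicate 2 shared a chain of 21 exons. Cd151, a tetraspanin of the cell surface, had 10.9% in replicate 1 and 28.9% in replicate 2, and its leading chain was a suffix model in both, with 9 and 17 reads. Its difference still became 1.15 points, without a call, once chains classed as suffix in either library were counted in both.

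When a chain classed as suffix in either library was counted as suffix in both, under 1 gene, 2 genes were called, 0.0412% of 4855. Atp5b kept its difference of -12.7 points (adjusted p = 7.5e-16, Fisher's exact test), and its leading chain of 2 exons, from chr10:128089041 in both libraries, had 500 reads in replicate 1 and 868 in replicate 2. Ric8a, a chaperone of G protein subunits, had 4 suffix reads of 86 in replicate 1 and 21 of 73 in replicate 2 (adjusted p = 0.0285, Fisher's exact test), and its leading chain of 9 exons had 0 and 17 reads. When the libraries' common odds ratio was taken as the null, Ric8a was no longer called (adjusted p = 0.0534, exact test). Over all suffix models the exchange of classes was small: in each library 69 suffix models had their chain among the new combinations of known splice sites of the other, 34 in replicate 1 and 26 in replicate 2 among its models of the subtype "Both", and 20 and 27 among its models with new splice sites, while 43 of the 7316 shared chains were placed in different genes.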

How the data were processed

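The authors deposited unnormalized read counts for each transcript model. Models were named by TALON per the file headers, on mm10 with GENCODE mouse release 21 per the notes deposited with the files. Each library has its own table and annotation. Only models with at least 1 read are listed. The aligner, the software versions and how alignments were filtered were not given in the sources used here. Spike-in loci were left out.

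Suffix models were matched between libraries by intron chain, and their exons set against known transcripts named as parents in the annotation. Starts were compared with exon boundaries of the annotation. Sequences came from GENCODE release 21 transcripts and coding intervals from its annotation; RefSeq starts came from the supplied gene tables. Shares have Wilson intervals. All work used Python 3.11.15, pandas 2.3.3 and numpy 2.4.6. Genes with at least 20 multi-exon reads in each library were tested by Fisher's exact test (SciPy 1.17.1, Benjamini-Hochberg). The procedure was tested on simulated data. The text names the genes with most suffix reads, leading chains, the extremes of share, called genes and members of the lists. Members and lists were chosen with earlier results of these data known. Alternatives were other read minimums, start distances, parents and denominators, and each library alone. Some results that the rule for named genes would take in are not reported here.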

Additional observations from a re-analysis of the deposited data

How the results depend on the processing

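The mean share of mouse reads, 6.77%, was 8.03% among multi-exon reads and 5.19% with models of at least 2 reads, and ranged from 6.40% to 7.14% with 1 library left out. The median loss of 3 exons became 3.5 with the parent that loses most, 2 with models of at least 2 reads and 1 with new models allowed as parents, and stayed 3 to 3 with either library alone. The share of shared starts, 81.5%, was 79.4%, 83.5% and 86.3% at 5, 50 and 100 bp, 82.6% with at least 5 reads in each library, 50.4% against any suffix model of the gene, 45.5% for starts on no annotated boundary in either library and 19.7% for those on no boundary at all. Against known models only, 6 of 4267 genes tested were called, and 5 of these were among the 15 genes called before. Cd151 lost its call there, and the others of the 15 were not among the genes tested. With chains counted as suffix in both libraries 2 genes were called. Under that last setting the difference of 5 genes changed sign: Cd151 to 1.15 points, H2-Ke6 to 1.46, Ndufa13 to 0.274, Nudt5 to 9.33 and Snhg5 to 10.9, and none of the 5 was called. It left 8 others without a call, of which Slc25a38 at -23.8 points, Pusl1 at 14.5 and Surf2 at -14.5 lost it on the adjusted p alone. A common odds ratio between the libraries left 10 called, without Ric8a, Cd151, Snhg5, Sptb and Surf2, and the adjusted p of Ric8a ranged from 0.00743 to 0.0534 over its alternatives. The settings on the kind of start, on chains counted in both libraries, on new parents and annotated parents, on starts past the upstream intron, and on liver genes were chosen after seeing the data. No paired analysis was possible because there is 1 group. With 1 read in 67.3% of models on average, most single starts have no second read behind them.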
